A study of Saccharomyces cerevisiae with 36 samples.

Results

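The genes described here encode the proteins of the mitochondrial ribosome of budding yeast, chosen as every gene on the array whose symbol begins with MRPL, MRPS or MRP followed directly by a number. The rule gave 56 of the 5713 named genes, each printed as 2 spots. It used no measured value. RefSeq synonyms gave a unified ribosomal protein name for 55 of them, which placed 38 in the large and 17 in the small subunit. In that nomenclature 24 have relatives in all ribosomes (prefix u), 13 in bacterial ribosomes (prefix b) and 18 only in mitochondrial ones (prefix m). MRP8 (YKL142W) carries no such name. Its symbol meets the rule, but it belongs to neither subunit in the table used.

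Mitochondrial ribosomes translate the few messages of the mitochondrial genome, most of which encode membrane subunits of the respiratory chain and the ATP synthase. Nearly all of their proteins are made from nuclear genes in the cytosol and imported, and they are distinct from the proteins of the cytosolic ribosome (RPL and RPS genes). In yeast, transcripts of many of these genes are bound by the RNA-binding protein Puf3, which ties their stability to the carbon source.

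Saccharomyces cerevisiae cultures were exposed to calcofluor white or congo red (dyes that bind polymers of the cell wall, at 0.02 or 0.1 mg/ml) or to caffeine (a methylxanthine that affects growth signalling and to which wall mutants are sensitive, at 2 or 20 mM). RNA was taken at 5, 15 and 90 min and hybridised against RNA of untreated cells of the same time point, which gave 18 conditions of drug, dose and time. Per the series' design text each condition has 2 biological replicates with exchanged dyes, here 1 array each and 36 in all. Replicate 1 carried the treated RNA as Cy5, and replicate 2 carried it as Cy3. The sources used here name no strain or medium.

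Values are log2 ratios centred on each array's median, taken as treated over untreated. That direction is assumed, since the deposited table does not state it. The deposited sign was kept on all arrays of both dye orientations in the reported fit. The 2 arrays of caffeine 20 mM then correlated over all genes at 0.536 at 15 min and 0.692 at 90 min. In 13 of the 18 conditions the correlation was below 0, the lowest −0.542 (calcofluor white 0.02 mg/ml at 15 min). Estimates carry the standard error (SE) of limma, with n = 2 arrays per condition. A gene rose or fell where its Benjamini-Hochberg adjusted p over all genes tested was below 0.05. The SE pools the spread of a gene over all arrays, so it does not measure the spread between the 2 arrays beside it. Because the ratios are relative to the median of all genes, a change shared by most genes cannot be seen.

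On 7 arrays the labels disagree among themselves, and the title was followed. The description gives another dose or time for replicate 1 of calcofluor white 0.02 mg/ml at 5 and 15 min, calcofluor white 0.1 mg/ml at 15 min and congo red 0.02 mg/ml at 90 min. One channel does so for replicate 2 of both calcofluor white doses at 15 min and for replicate 1 of caffeine 20 mM at 15 min. Among 306 pairs of arrays of the same dye orientation, 1 correlated below −0.3, caffeine 2 mM replicate 1 at 5 min against 15 min (r = −0.375), so the direction of these 2 arrays is not settled. Calls in the conditions of these arrays are given with and without them, or with the sign turned. Both calcofluor white doses at 15 min, and contrasts that use them, have no value without these arrays.

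Of the 56 genes, 51 had values on at least 24 arrays and entered the fit, and 46 to 51 of them could be tested in a given condition. MRP13, MRP4, MRPL25, MRPL9 and MRPS35 had values on 20, 12, 22, 7 and 14 arrays and were not tested. Their arrays ran from −0.76 to 1.08 for MRP13, −1.604 to 1.18 for MRP4, −1.19 to 1.04 for MRPL25, −1.04 to −0.14 for MRPL9 and −1.84 to 3.29 for MRPS35. A difference between the dye orientations passed for 33 of the 51 members (64.7%) and for 3404 of all 5391 genes (63.1%), which is why both orientations are shown for each value. The median distance between the 2 spots of a gene on an array was 0.102 for the mitochondrial ribosomal protein genes and also 0.102 for all genes.

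The median of the mitochondrial ribosomal protein genes lay between −0.06 and 0.12 on the log2 scale in all 18 conditions. The most one-sided condition was congo red 0.1 mg/ml at 15 min, where 38 of 51 estimates were below 0, with a median of −0.03. The median of all genes there was −0.002, and their share below 0 was not counted. The 2 arrays of that condition correlated over all genes at −0.539. Of 902 tests of a gene in a condition, 41 passed the threshold, 21 higher and 20 lower, against 5745 of 94538 tests over all genes. The calls fell on 29 genes, 21 of them called in 1 condition, 5 in 2 conditions and 3 (MRP20, MRPS5 and MRPS12) in more. The matching count over all genes was not made, so whether 29 is many or few cannot be told. The other 22 passed in no condition, namely MRP1, MRP8, MRP10, MRP21, MRP35, MRP49, MRPL3, MRPL4, MRPL7, MRPL8, MRPL11, MRPL17, MRPL19, MRPL20, MRPL23, MRPL24, MRPL31, MRPL32, MRPL49, MRPL51, MRPS8 and MRPS17. In 39 of the 41 calls both arrays had the same sign. Calls rest on the mean of these same arrays, which favours a shared sign, and called genes outside the members were not counted.

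**Figure D1:**
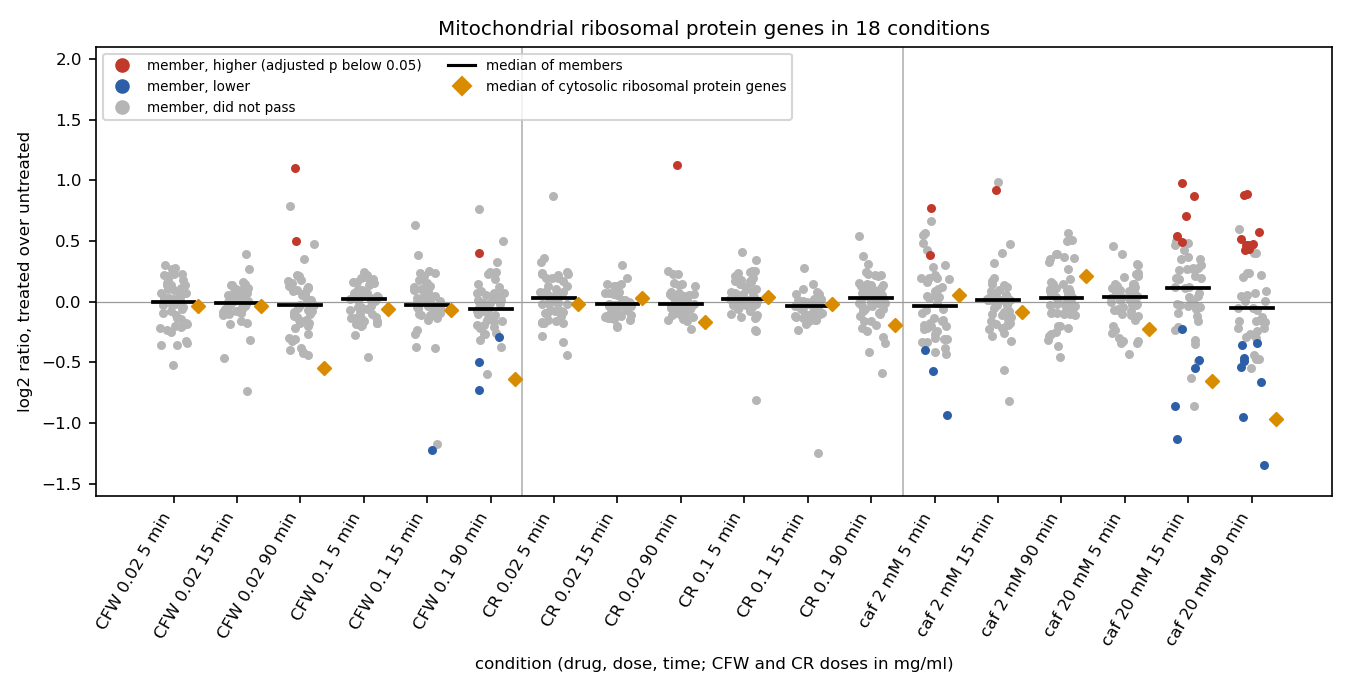
Estimated log2 ratio of treated over untreated cells (y axis) for each tested mitochondrial ribosomal protein gene in the 18 conditions (x axis, CFW calcofluor white, CR congo red, caf caffeine). Points are single genes, coloured where the adjusted p was below 0.05, black lines are their medians, which stay between −0.06 and 0.12, and diamonds are medians of the cytosolic ribosomal protein genes, lowest at −0.97 with caffeine 20 mM at 90 min.

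The most members were called with caffeine at 20 mM for 90 min, where 9 rose and 8 fell of 50 tested. The background there was wide, with 22% of all 5270 genes higher and 22.4% lower, so the share of members called (34%) was not above that of all genes. The median of the members was −0.05, against −0.03 for all genes. In the large subunit 6 of 36 rose and 5 fell, and in the small subunit 3 of 13 rose and 3 fell. By origin, 4 of 13 genes with bacterial relatives rose and 0 fell, while of 21 with relatives in all ribosomes 4 rose and 6 fell, and of 15 mitochondrial ones 1 rose and 2 fell. These are counts and were not tested against each other.

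Among the large subunit genes that rose was MRP7 (YNL005C), encoding bL27m, whose bacterial relative lies near the peptidyl transferase centre. It stood at 0.69 and 1.07 on its 2 arrays, an estimate of 0.88 ± 0.21 (1.84-fold, adjusted p = 0.00188). MRPL1 (YDR116C), encoding uL1m of the L1 stalk, stood at 0.63 and 0.41, an estimate of 0.52 ± 0.12 (adjusted p = 0.00112). Both genes were above 0 on both arrays. MRPL36 (bL31m) had 0.07 and 0.88, an estimate of 0.48 ± 0.11 (adjusted p = 9.61e-04), so almost all of its value came from 1 array. MRPL28 (mL40) stood at 0.57 and 0.36 and MRPL6 (uL6m) at 0.54 and 0.61. MRP20 (uL23m) completes the large subunit genes that rose and is described with its other conditions.

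MRPL15 (YLR312W-A), encoding the mitochondrial protein mL57, had the lowest estimate of all members at 90 min, −1.35 ± 0.21 (0.393-fold, adjusted p = 2.88e-05), with −0.24 in replicate 1 and −2.45 in replicate 2. It also fell at 15 min of the same dose, to −0.39 and −1.88, an estimate of −1.13 ± 0.21 (adjusted p = 4.22e-04). On the other 16 replicate 1 arrays the gene lay between 0.10 and 0.50, and on the other 16 replicate 2 arrays between −0.70 and −0.02, so both orientations were at their lowest in these 2 conditions. The size of the change is not well measured, because its 2 spots disagreed in replicate 2. They read −3.21 and −0.55 at 15 min and −1.08 and −3.82 at 90 min, a different spot being the low one each time. In replicate 1 they read −0.31 and −0.47 at 15 min and −0.23 and −0.25 at 90 min. Left out where its spots differed by more than 1, the gene could not be tested in either condition. Without replicate 2 the estimate was −0.76 at 15 min (adjusted p = 0.0597) and −0.59 at 90 min (adjusted p = 0.0377).

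The other large subunit genes that fell at 90 min had smaller changes, each larger in replicate 2. MRPL44 (mL53) had −0.39 and −0.94, an estimate of −0.67 ± 0.16 (adjusted p = 0.00218). MRPL33 (uL30m) had −0.10 and −0.83, an estimate of −0.46 ± 0.11 (adjusted p = 0.00244). MRPL22 (uL22m, a protein of the exit tunnel wall in bacteria) stood at −0.32 and −0.65, and MRPL38 (uL14m) at −0.25 and −0.82. The replicate 2 array had the widest spread over genes of all 36 arrays (scaled median absolute deviation 0.739, against 0.496 in replicate 1). Without it MRPL44 was at −0.35 (adjusted p = 0.282), MRPL33 at −0.30 (adjusted p = 0.203), MRPL22 at −0.23 (adjusted p = 0.444) and MRPL38 at −0.24 (adjusted p = 0.485). Of the 17 calls, 6 were kept without replicate 2 (MRP2, MRP20, MRPL1, MRPL6, MRPL15 and MRPL28), and 11 were not, with MRP7 at 0.58 (adjusted p = 0.178) and MRPL36 at 0.28 (adjusted p = 0.171). Without replicate 1, 13 were kept and 4 were not (MRP20, MRPL6, MRPS16 and MRPS28). With all arrays scaled to one spread 2 members were called, against 16.9% of all genes.

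In the small subunit, MRP2 (YPR166C), encoding uS14m, had −0.68 and −1.23, an estimate of −0.95 ± 0.12 (0.517-fold, adjusted p = 1.79e-06). Its spots agreed within 0.06 on both arrays, and these were the lowest values of the gene in each orientation. The call was kept in all 12 other settings run, where the estimate lay between −1.10 and −0.49. MRPS16 (bS16m) stood at 0.85 and 0.92, an estimate of 0.89 ± 0.26 (1.85-fold, adjusted p = 0.0104). MRP51 (YPL118W, bS1m), a protein that in yeast acts with the leaders of mitochondrial messages, stood at 0.33 and 0.52, an estimate of 0.43 ± 0.10 (adjusted p = 0.00117). MRPS18 (uS11m) rose with 0.31 and 0.56, and MRPS28 (uS15m) fell with −0.17 and −0.55. MRPS12 also fell.

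**Figure D2:**
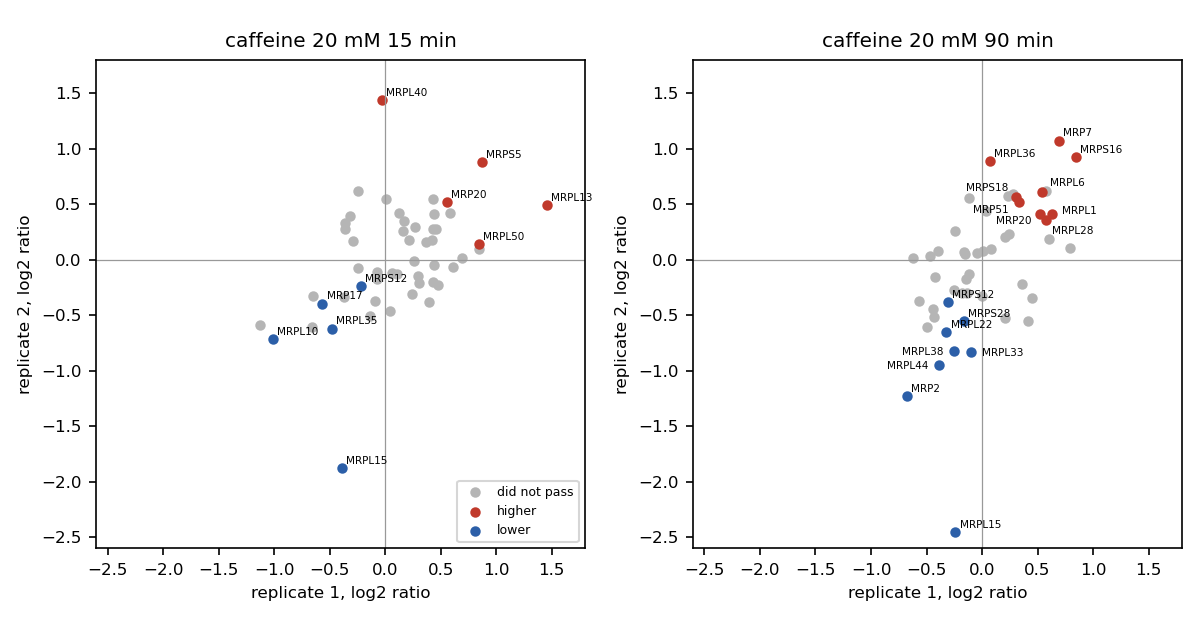
Log2 ratio in replicate 1 (x axis) against replicate 2 (y axis) of each tested mitochondrial ribosomal protein gene with caffeine 20 mM at 15 min (left) and 90 min (right). Coloured points passed the threshold, among them MRPL15, at −2.45 in replicate 2 and −0.24 in replicate 1 at 90 min, and MRPL40, at −0.03 in replicate 1 and 1.44 in replicate 2 at 15 min.

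At 15 min of caffeine 20 mM, 5 of 51 members rose and 5 fell, against 14.3% of all genes higher and 16.8% lower. The share of members called, 19.6%, was again not above the background. Their median was 0.12, against 0.02 for all genes. Of the 9 called genes that could also be tested at 90 min, 3 were called again (MRP20, MRPL15 and MRPS12), each with the same sign, and MRPS5 could not be tested there. Over all genes, 842 of 1621 (51.9%) were called again, 615 of them with the same sign. The difference between these shares was not tested. Without replicate 1, whose untreated channel is labelled with another time, the median of the members was 0.03, and without replicate 2 it was 0.13. With all 7 arrays of disagreeing labels left out it was 0.06.

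MRPL13 (YKR006C), encoding the mitochondrial protein mL50, had 1.45 and 0.50 at 15 min, an estimate of 0.97 ± 0.26 (1.96-fold, adjusted p = 0.00775). MRPL10 (YNL284C, uL15m) had −1.01 and −0.71, an estimate of −0.86 ± 0.25 (0.55-fold, adjusted p = 0.0111). The spots of both genes agreed within 0.26. MRPL35 (mL38) fell with −0.48 and −0.62, and MRP17 (bS6m) with −0.56 and −0.39, its replicate 2 spots reading 0.02 and −0.81. MRPL50 (bL9m) rose with 0.84 and 0.14, an estimate of 0.49 ± 0.17 (adjusted p = 0.0342). MRPL40 (uL24m) passed with −0.03 and 1.44, an estimate of 0.71 ± 0.20 (adjusted p = 0.00998), so its arrays differ in sign, and its replicate 2 spots read 0.84 and 2.03. Without replicate 2 it was at 0.18 (adjusted p = 0.598). Without the arrays of disagreeing labels this condition keeps replicate 2 alone. Fewer genes passed in that fit, both among the members and over all genes. The calls of MRPS5, MRPL15 and MRPL40 passed. For MRPL15 and MRPL40 they rest on the 1 array where the spots of the gene differed by more than 1. The values were then 0.70 for MRPL13 (adjusted p = 0.39), −0.69 for MRPL10 (adjusted p = 0.364), −0.88 for MRPL35 (adjusted p = 0.107), −0.23 for MRP17 (adjusted p = 0.738) and 0.28 for MRPL50 (adjusted p = 0.633). MRP20 and MRPS12 did not pass in that fit either.

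MRPL13 and MRPL10 also had the highest and the lowest mean over the 18 conditions, 0.39 and −0.19. MRPL13 was above 0 in 15 of 18 conditions and ranged from −1.06 to 1.45 over the arrays, with a residual SD of 0.394. MRPL10 was above 0 in 4 of 18 and ranged from −1.51 to 0.76.

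At 5 min of caffeine 20 mM, 0 of 51 members passed, against 1.2% of all genes, and 3 had an unadjusted p below 0.05. The smallest p belonged to MRPS5, with 0.41 and 0.19 (estimate 0.30 ± 0.11, adjusted p = 0.272), followed by MRP20, with 0.11 and 0.51 (0.31 ± 0.13, adjusted p = 0.344).

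MRPS5 (YBR251W) encodes uS5m, whose bacterial relative lines the entry of the message into the small subunit. It rose with caffeine at 15 min at both doses. At 2 mM it stood at 0.838 and 1.004, an estimate of 0.92 ± 0.11 (1.89-fold, adjusted p = 8.79e-05). At 20 mM it stood at 0.87 and 0.88, an estimate of 0.87 ± 0.11 (1.83-fold, adjusted p = 1.06e-05). The spots agreed within 0.16 on these 4 arrays. At 5 min of 2 mM it stood at 0.88 and 0.66, an estimate of 0.77 ± 0.11 (1.71-fold, adjusted p = 6.97e-04), with replicate 1 spots at 1.27 and 0.50. At 90 min of 2 mM it was at 0.22 and 0.07 and did not pass. At 90 min of 20 mM replicate 2 stood at 0.98 and replicate 1 had no value, so it was not tested there.

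In the 12 conditions with the dyes MRPS5 passed in none, with arrays between −0.44 and 0.15. The call at 20 mM and 15 min was kept in all 11 other settings that gave a value, including those without the arrays of disagreeing labels (0.93, adjusted p = 0.00624). At 2 mM the direction rests on arrays whose sign is not settled. With the sign of replicate 1 turned, the estimate was −0.11 at 5 min (adjusted p = 0.736) and 0.08 at 15 min (adjusted p = 0.913). Replicate 2 alone gave 0.70 at 5 min and 1.05 at 15 min. Its direction is assumed too, and the 2 arrays correlated over all genes at −0.19 at 5 min and −0.03 at 15 min. Fitted on the caffeine arrays alone, the estimates did not pass at 5 min (adjusted p = 0.148) or 15 min (adjusted p = 0.157) of 2 mM and passed at 15 min of 20 mM (adjusted p = 0.0101).

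At 15 min of caffeine 2 mM MRPS5 was the 1 member called of 51, against 0.429% of all genes higher and 0.112% lower. With the sign of that replicate 1 array turned 0 were called, against 0% of all genes. At 5 min of 2 mM, 2 of 50 members rose and 3 fell, against 3.12% of all genes higher and 2.03% lower. With MRPS5, MRP51 rose (0.56 and 0.20, estimate 0.38 ± 0.10, adjusted p = 0.0267). MRPL44 fell (−0.46 and −0.68, estimate −0.57 ± 0.16, adjusted p = 0.045), as did MRPL33 (−0.21 and −0.59, estimate −0.40 ± 0.11, adjusted p = 0.0472). MRPL16 (uL16m, near the aminoacyl site in bacteria) passed with −0.16 and −1.70, an estimate of −0.93 ± 0.22 (adjusted p = 0.0209), but its replicate 2 spots read −3.32 and −0.09, and without replicate 2 it was at −0.02 (adjusted p = 0.931). Turned in sign, replicate 1 gave −0.18 for MRP51 (adjusted p = 0.299), −0.11 for MRPL44 (adjusted p = 0.743) and −0.19 for MRPL33 (adjusted p = 0.273), while MRPL16 still passed at −0.77 (adjusted p = 0.0389). In that fit 8 members were called, against 17.85% of all genes. At 90 min of 2 mM 0 of 51 passed, against 0% of all genes, with 5 at an unadjusted p below 0.05.

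**Figure D3:**
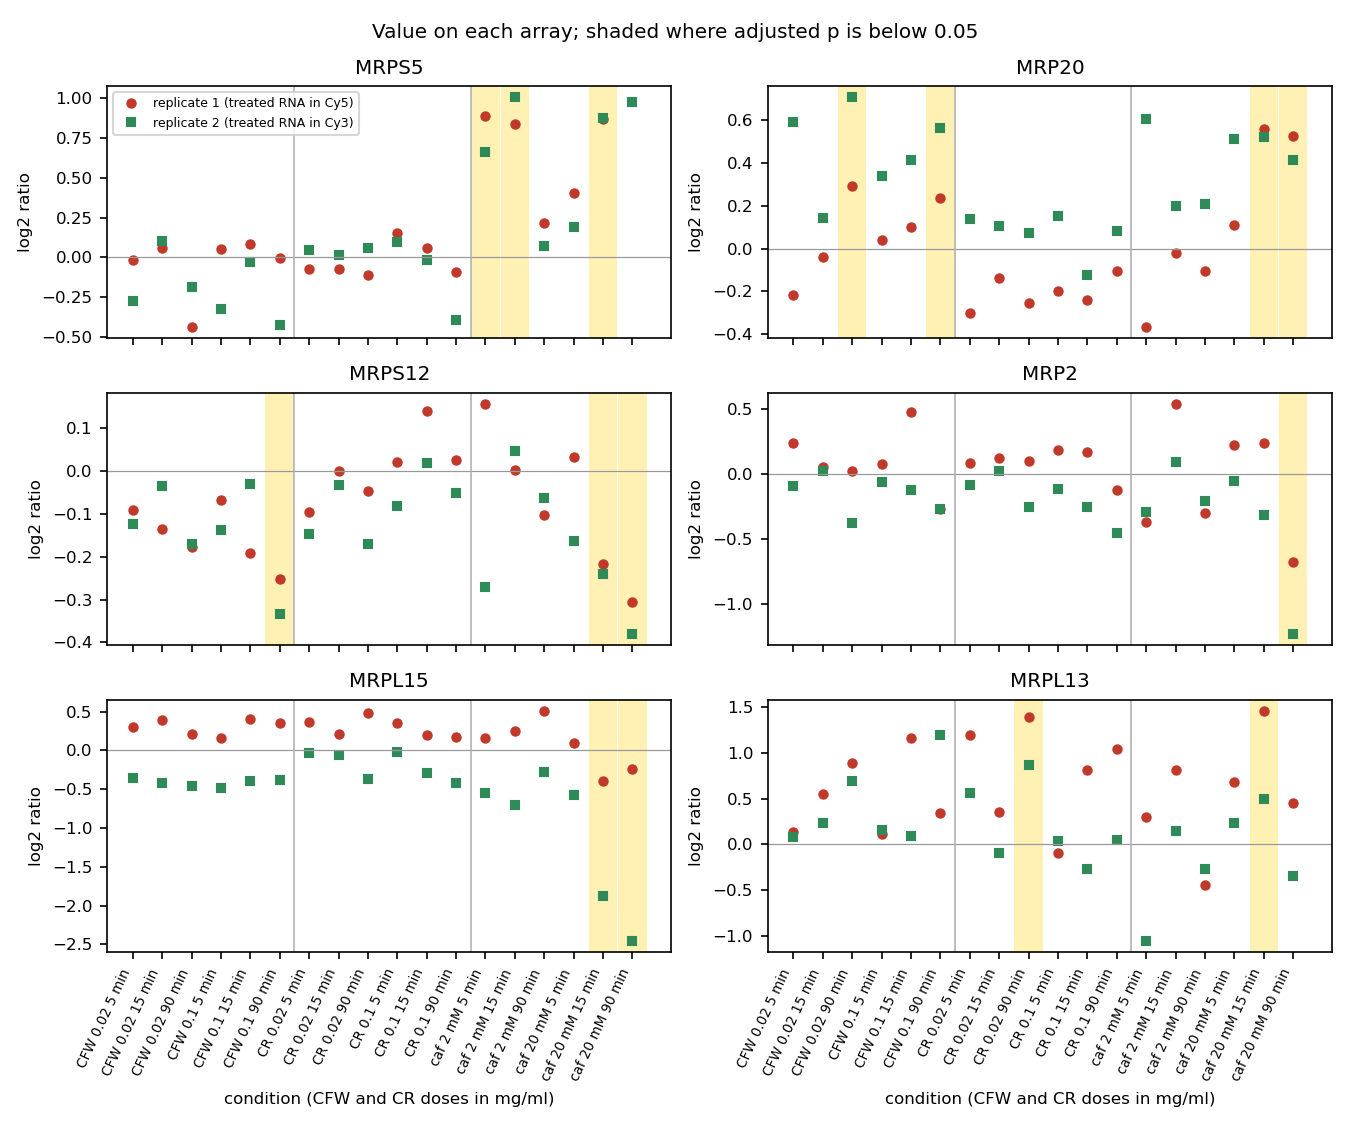
Log2 ratio of treated over untreated cells on each array (y axis) for 6 genes in the 18 conditions (x axis), circles for replicate 1 and squares for replicate 2, shaded where the adjusted p was below 0.05. MRPS5 lies at 0.66 or above on the 6 arrays of its shaded conditions, and MRPL15 has replicate 2 values of −1.88 and −2.45 in its shaded conditions.

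MRP20 (YDR405W) encodes uL23m, at the exit of the tunnel, where the ribosome meets the membrane insertion machinery. It rose in 4 conditions. Calcofluor white at 90 min gave 0.29 and 0.71 at 0.02 mg/ml, an estimate of 0.50 ± 0.13 (1.41-fold, adjusted p = 0.0167). At 0.1 mg/ml it gave 0.24 and 0.56, an estimate of 0.40 ± 0.13 (1.32-fold, adjusted p = 0.0468). Caffeine at 20 mM gave 0.56 and 0.52 at 15 min, an estimate of 0.54 ± 0.13 (1.45-fold, adjusted p = 0.00429), and 0.52 and 0.41 at 90 min, an estimate of 0.47 ± 0.13 (1.38-fold, adjusted p = 0.0069). All 8 arrays were above 0. With congo red the gene lay between −0.30 and 0.15 on the 12 arrays and passed in none. None of the 4 calls was kept in all settings run, and all 4 were lost without the replicate block (adjusted p from 0.0852 to 0.38). Without the arrays of disagreeing labels the value with caffeine at 15 min was 0.36 (adjusted p = 0.351).

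MRPS12 (YNR036C) encodes uS12m of the decoding centre, and it had the smallest residual SD of the members, 0.088. It fell in 3 conditions by small amounts. Calcofluor white 0.1 mg/ml at 90 min gave −0.25 and −0.33, an estimate of −0.29 ± 0.09 (0.816-fold, adjusted p = 0.0248). Caffeine 20 mM gave −0.22 and −0.24 at 15 min, an estimate of −0.23 ± 0.09 (adjusted p = 0.0495), and −0.30 and −0.38 at 90 min, an estimate of −0.34 ± 0.09 (0.789-fold, adjusted p = 0.00297). On these 6 arrays its spots agreed within 0.09. Of the 12 other settings run, 2 kept the call with caffeine at 15 min. The call with caffeine at 90 min was kept in 9, and that with calcofluor white in 7. The call at 15 min did not pass without the arrays of disagreeing labels (−0.20, adjusted p = 0.517), nor did that of calcofluor white (−0.29, adjusted p = 0.0587).

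With calcofluor white 0.1 mg/ml for 90 min, 1 of 50 members rose and 3 fell, against 6.33% of all genes higher and 8.34% lower. MRP20 rose. Besides MRPS12, MRPL39 (YML009C, bL33m) fell with −0.42 and −1.04, an estimate of −0.73 ± 0.14 (0.603-fold, adjusted p = 0.00123), and MRPS9 (uS9m) with −0.89 and −0.11, an estimate of −0.50 ± 0.13 (adjusted p = 0.0129). The MRPS9 arrays lie far apart. The calls of MRPS9, MRP20 and MRPS12 were each lost without replicate 1 and also without replicate 2. That of MRPL39 was lost without replicate 2, at −0.62. Fewer of all genes passed in those fits as well. At 0.02 mg/ml for 90 min, 2 of 48 rose and 0 fell, against 5.51% of all genes higher and 5.59% lower. One is MRP20. The other, MRPL37 (mL54), had −0.59 in replicate 1 and 2.80 in replicate 2, where 1 spot had a value and the other was missing. Its estimate was 1.11 ± 0.33 (adjusted p = 0.0361), and without replicate 2 it was −0.38 (adjusted p = 0.271).

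At 15 min of calcofluor white 0.1 mg/ml, 0 of 46 rose, against 0% of all genes, and 1 fell, against 0.0197%, which is 1 gene of 5082. That gene was MRPL27 (YBR282W, mL41), with −1.53 and −0.91, an estimate of −1.22 ± 0.19 (adjusted p = 0.0169). Its spots read 0.21 and −3.26 in replicate 1 and −0.29 and −1.54 in replicate 2, so 1 spot was low on both arrays and the other was not. Left out where spots differed by more than 1, it could not be tested. Both arrays of this condition have disagreeing labels, and without replicate 1 the value was −0.74 (adjusted p = 0.85).

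In the other calcofluor white conditions no member passed, against 0% of all genes at 0.02 mg/ml for 5 min, 0% at 0.02 mg/ml for 15 min and 0% at 0.1 mg/ml for 5 min. Unadjusted p values below 0.05 numbered 3, 1 and 2 there. At 0.1 mg/ml for 5 min the smallest p belonged to MRPL27 (−0.56 and −0.36) and MRP51 (−0.17 and −0.24), both with an adjusted p of 0.9996.

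With congo red few of the members passed, as did few of all genes. At 0.02 mg/ml for 90 min 1 of 50 rose and 0 fell, against 0.672% of all genes higher and 0.0187% lower. It was MRPL13, with 1.396 and 0.864, an estimate of 1.13 ± 0.26 (2.19-fold, adjusted p = 0.0498). Without replicate 1, whose description gives another dose, it was 1.09 (adjusted p = 0.762). No member passed in the other 5 conditions, against 0% of all genes at 0.02 mg/ml for 5 min, 0.0187% at 15 min, and at 0.1 mg/ml 0.0187% at 5 min, 0% at 15 min and 1.38% at 90 min. Unadjusted p values below 0.05 numbered 3, 0, 2, 1 and 5. At 0.1 mg/ml the smallest p belonged to MRPL10 (−0.11 and −1.51) and MRPL36 (0.23 and 0.45) at 5 min, to MRPL3 (mL44, −2.93 and 0.44) and MRP20 (−0.24 and −0.12) at 15 min, and to MRPL7 (uL5m, −0.22 and −0.96) and MRP8 (−0.15 and 0.90) at 90 min. MRPL3 and MRP8 had opposite signs on the 2 arrays.

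MRP8 was called in 0 of 18 conditions. Its estimates ran from −0.12 to 0.38, and its arrays from −0.44 to 0.90.

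**Figure D4:**
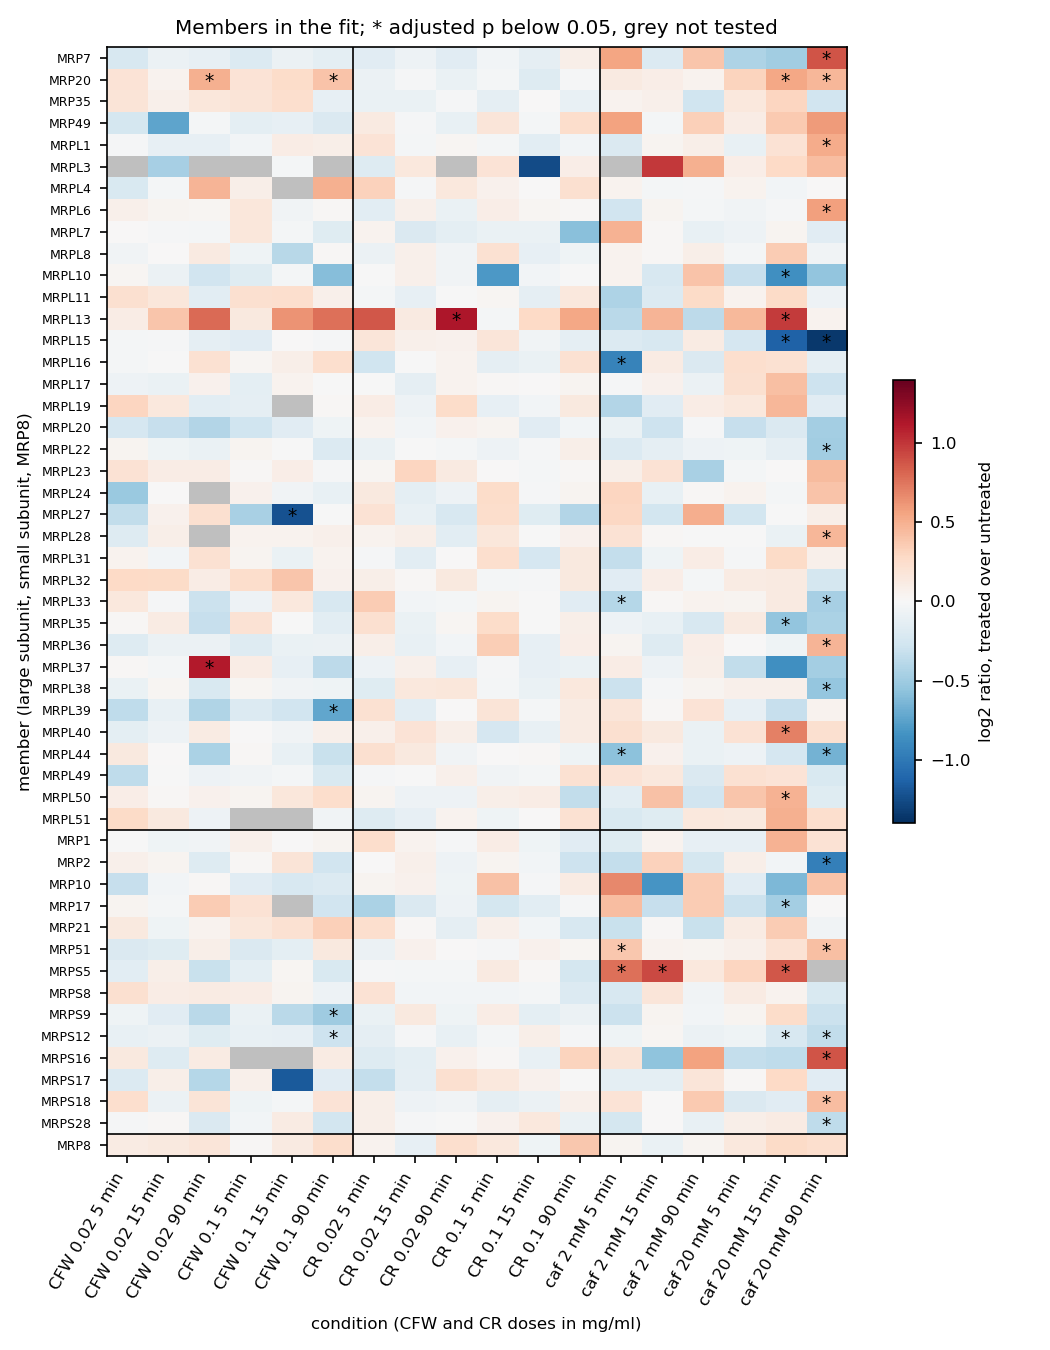
Estimated log2 ratio of treated over untreated cells (colour) of the 51 fitted genes (rows, large subunit, small subunit and MRP8) in the 18 conditions (columns). Asterisks mark the 41 calls, most of them in the caffeine columns, where most calls over all genes also fell. Grey cells had too few values to test.

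The doses, times and drugs were also compared directly in 21 contrasts, and members passed in 5 of them. Caffeine 20 mM minus 2 mM at 90 min gave 4 higher and 3 lower of 50, against 11.3% of all genes higher and 12% lower. MRPL15 was at −1.35 with 20 mM and 0.11 with 2 mM, a difference of −1.46 ± 0.30 (adjusted p = 0.00111), with the disagreeing spots given above. MRP2 was at −0.95 and −0.25, a difference of −0.70 ± 0.17 (adjusted p = 0.00372). MRPL33 (−0.46 with 20 mM and 0.05 with 2 mM) also passed. On the higher side were MRPL23 (uL13m, 0.45 with 20 mM and −0.46 with 2 mM), MRPL28 (0.47 and −0.00) and MRPL6 (0.57 and −0.03). The MRPL23 difference of 0.91 rests on 1 array, being 0.21 (adjusted p = 0.541) without replicate 2 of 2 mM and 1.607 without its replicate 1. Each of the other 5 also failed to pass without at least 1 array, among them MRPL15, at −0.70 (adjusted p = 0.0581) without replicate 2 of 20 mM. At 5 and 15 min 0 members passed, against 2.59% and 4.82% of all genes, with 13 and 4 members at an unadjusted p below 0.05. The dose contrasts of both dyes had 0 calls at each time, against 0% of all genes in each of the 6, with 1, 2 and 2 members at an unadjusted p below 0.05 for calcofluor white and 2, 0 and 0 for congo red.

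Caffeine 20 mM at 90 min minus 15 min gave 7 higher and 6 lower of 50, against 17.9% of all genes higher and 17.8% lower. MRP7 was at 0.88 at 90 min and −0.49 at 15 min, a difference of 1.37 ± 0.30 (adjusted p = 0.00162). MRP2 was at −0.95 and −0.04, a difference of −0.92 ± 0.17 (adjusted p = 3.37e-04). MRPS18 (0.44 at 90 min and −0.16 at 15 min), MRPL33 (−0.46 and 0.12) and MRPS9 (−0.30 and 0.26) passed too. MRP7 and MRP2 still passed when each array of the contrast was left out in turn, and the other 3 did not, MRPS9 falling short at −0.35 (adjusted p = 0.305) without replicate 1 of 15 min. Without the arrays of disagreeing labels 1 member was called, MRP2 (−0.75, adjusted p = 0.0309), and MRP7 had a difference of 1.11 (adjusted p = 0.0929). At 15 min minus 5 min of 20 mM 0 passed, against 2.42% of all genes, with 4 at an unadjusted p below 0.05. For calcofluor white 0.1 mg/ml at 90 min minus 15 min 1 of 45 was higher and 0 lower, against 1.25% and 1.13% of all genes. It was MRPL27 (−0.00 at 90 min and −1.22 at 15 min), whose 15 min spots disagree as given above, and it was 0.73 (adjusted p = 0.352) without replicate 1 of 15 min. The contrast of 15 minus 5 min had 0 calls, against 0%, and both congo red time contrasts had 0, against 0% at 15 minus 5 min and 0.0748% at 90 minus 15 min, with 2, 2 and 1 members at an unadjusted p below 0.05.

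Caffeine 20 mM minus the mean of both dyes at 0.1 mg/ml gave 4 higher and 1 lower of 46 at 15 min, against 7.2% of all genes higher and 10% lower. MRPS5 was at 0.87 with caffeine and 0.02 with the dyes, a difference of 0.85 ± 0.14 (adjusted p = 2.76e-04), and MRPL15 at −1.13 and −0.02, a difference of −1.11 ± 0.26 (adjusted p = 0.00516). At 90 min the contrast gave 6 higher and 3 lower of 49, against 15.4% of all genes higher and 14.2% lower. MRP2 was at −0.95 with caffeine and −0.28 with the dyes (difference −0.68 ± 0.14, adjusted p = 0.00157), MRPL15 at −1.35 and −0.07 (difference −1.28 ± 0.26, adjusted p = 9.65e-04), MRP7 at 0.88 and −0.03 (difference 0.91 ± 0.26, adjusted p = 0.0119) and MRPL36 at 0.48 and 0.01 (difference 0.47 ± 0.13, adjusted p = 0.00942). MRPS5 still passed when each array was left out in turn. The other 5 differences did not pass without replicate 2 of caffeine, MRPL36 being at 0.27 (adjusted p = 0.313), MRP7 at 0.61 (adjusted p = 0.286), MRP2 at −0.53 (adjusted p = 0.0722) and MRPL15 at −0.52 at 90 min (adjusted p = 0.151) and −0.74 at 15 min (adjusted p = 0.121). At 5 min 0 passed, against 0.216% of all genes. Congo red minus calcofluor white at 0.1 mg/ml gave 0 calls at 5, 15 and 90 min, against 0%, 0% and 0.288% of all genes. Unadjusted p values below 0.05 numbered 1 in the caffeine contrast at 5 min and 2, 3 and 6 between the dyes. The doses of caffeine and of the dyes are not matched.

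The genes that work with the mitochondrial ribosome were mixed as well in the condition with most calls, caffeine 20 mM at 90 min. Over all genes 22% rose and 22.4% fell there, and the counts of these small lists were not tested against that. Of 23 tested mitochondrial ribosomal protein genes with other symbols, 4 rose and 4 fell (median 0.04), with FYV4 at −1.32 and −1.64. Of 8 mitochondrial translation factors 1 rose and 3 fell. The release factor gene MRF1 stood at 1.11 and 0.84, while the elongation factor genes MEF1 (−0.52 and −1.17) and GUF1 (−0.51 and −0.71) fell. Of 12 mitochondrial tRNA synthetases 3 rose and 2 fell, with MSW1, the tryptophan enzyme, at 3.159 and 1.177 and ISM1, the isoleucine enzyme, at −1.20 and −1.73. Of 12 activators of single mitochondrial messages 4 rose and 3 fell, AEP1 standing at 0.96 and 0.94. Of 9 assembly and rRNA modification genes 3 rose and 0 fell, among them the rRNA methyltransferase gene MRM2 (1.43 and 1.66, estimate 1.55 ± 0.20, adjusted p = 2.48e-06) and the GTPase gene MTG1 (0.88 and 1.17). Of 6 regulators 2 rose and 1 fell. HAP4, the activating subunit of the Hap complex, fell (−0.40 and −0.53), and PUF3 rose, with 0.08 and 4.09, 2 arrays that lie far apart.

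The cytosolic ribosome differed in its counts. Of 124 tested cytosolic ribosomal protein genes 0 rose and 115 fell with caffeine 20 mM at 90 min (median −0.97), with RPL26B at −0.97 and −1.97. At 15 min 91 fell and 0 rose (median −0.65), and with calcofluor white 0.1 mg/ml at 90 min 90 of 123 fell and 0 rose (median −0.64). The medians of the mitochondrial genes in these conditions were −0.05, 0.12 and −0.06. Of 35 respiratory chain genes, 12 rose and 6 fell with caffeine 20 mM at 90 min, 12 rose and 2 fell at 15 min, and 6 rose and 1 fell with calcofluor white 0.1 mg/ml at 90 min. Over all genes 22% rose and 22.4% fell with caffeine 20 mM at 90 min, and 14.3% rose and 16.8% fell at 15 min. With calcofluor white 0.1 mg/ml at 90 min 6.33% of all genes rose and 8.34% fell. The ATP synthase genes ATP15 (1.49 and 1.22) and ATP17 (1.24 and 0.82) were among those that rose at 90 min of caffeine. The difference between these lists was not tested.

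**Figure D5:**
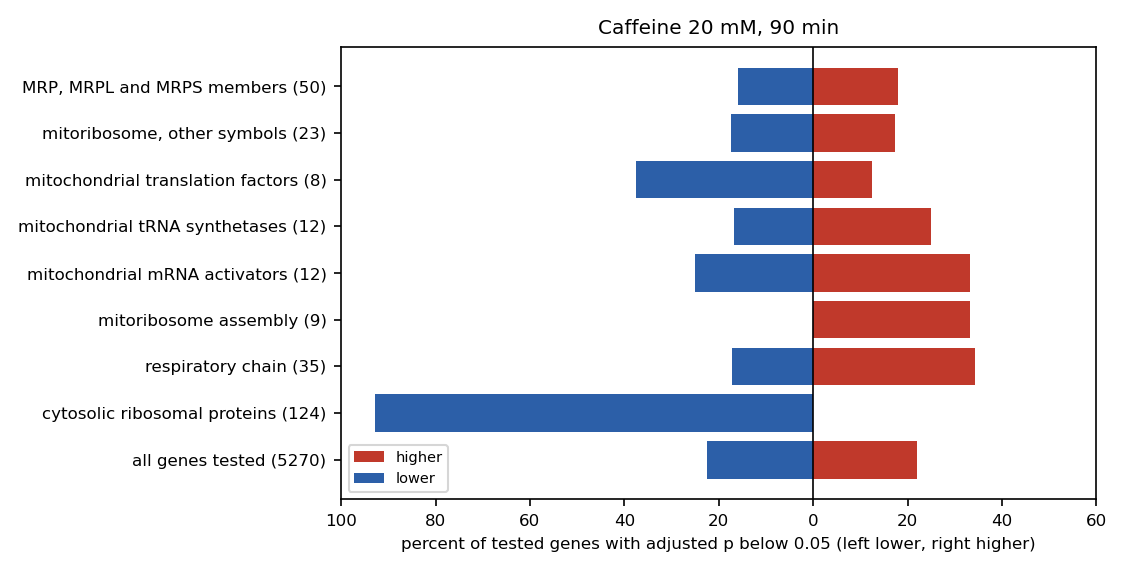
Percent of tested genes that passed the threshold with caffeine 20 mM at 90 min (x axis), lower to the left and higher to the right, for the mitochondrial ribosomal protein genes, related lists and all genes (number tested in brackets). The mitochondrial ribosomal protein genes have 18% higher and 16% lower, while the cytosolic ones have 92.7% lower.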

How the data were processed

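Log ratios were deposited as natural log (ln) values in 1 table by the authors, with a mean of 0 on each array. The sources used here name no scanner, background correction or normalization, and no label states the direction of the ratios. Values were divided by 0.6931 to give log2. The most frequent value of each array (1.61% to 16.1% of named spots), taken as a floor, was treated as missing. Values were then averaged over a gene's spots and centred on the array median.

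All 36 arrays were fitted together with a term for each of the 18 conditions and 1 for the dye, as limma 3.58.1 does (its variance moderation, R 4.3.3). The fit had 17 residual degrees of freedom for a complete gene and a prior of 3.67. The dye term is also the replicate block. The labels give only the numbers, but deviations of same-numbered arrays had correlations of 0.113 to 0.784 in all 153 pairs of conditions, so it was kept. A gene needed 24 arrays and both arrays of each condition compared. P values were adjusted by Benjamini-Hochberg over all genes of a comparison, at 0.05, in 39 comparisons. The procedure was run on simulated data with independent noise and, for each gene, the same spread on every array. The simulation did not cover the unequal spreads of the real arrays (0.199 to 0.739) or the correlated deviations given above. Depth has no meaning here, and the 2 arrays per condition limit precision (median SE 0.166). Tables were handled with python 3.11.15, numpy 2.4.6 and pandas 2.3.3.

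The genes and lists were chosen with earlier results of these data known. Named genes follow a rule: up to 5 members called per direction and condition with the smallest p, or, where none passed at a higher dose, the 2 with the smallest p. In each family of contrasts it names the 3 with the smallest p per direction. It adds members called in 3 or more conditions, those with the extreme means, MRP8, and up to 3 called genes of each other list. MRPL22, MRPL38, MRPS16 and MRPS28 fall outside it and were named after their values were seen, and spot values were also chosen then. Promoter motifs were not run, for want of sequences here.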

Additional observations from a re-analysis of the deposited data

Results flagged for a closer look

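The following differences between doses, times or drugs passed the test of the difference itself (limma, Benjamini-Hochberg adjusted p below 0.05). Between caffeine 20 mM and 2 mM at 90 min they were 0.907 for MRPL23, 0.467 for MRPL28 and 0.599 for MRPL6, and −1.457 for MRPL15, −0.703 for MRP2 and −0.517 for MRPL33. Between 90 and 15 min of caffeine 20 mM they were 1.369 for MRP7 and 0.598 for MRPS18, and −0.918 for MRP2, −0.585 for MRPL33 and −0.560 for MRPS9. Between 90 and 15 min of calcofluor white 0.1 mg/ml it was 1.215 for MRPL27. Between caffeine 20 mM and the mean of both dyes at 0.1 mg/ml they were 0.851 for MRPS5 and −1.113 for MRPL15 at 15 min. At 90 min they were 0.471 for MRPL36, 0.907 for MRP7, −1.278 for MRPL15 and −0.676 for MRP2.

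Of these 18 differences, 3 still passed when each array of the contrast was left out in turn, namely MRP7 and MRP2 between 90 and 15 min of caffeine and MRPS5 between caffeine and the dyes. The other 15 did not pass without at least 1 array. Among them MRPL23 was 0.207 (adjusted p = 0.541) without replicate 2 of caffeine 2 mM and 1.607 without its replicate 1, and MRPL36 was 0.274 (adjusted p = 0.313) without replicate 2 of caffeine 20 mM.

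For MRPL15 and MRPL27, the differences also rest on arrays where the 2 spots of the gene differed by 2.65 or more on at least 1 array of the low condition. Without such values neither has an estimate there. Of the 41 calls in single conditions, 5 rest on at least 1 array with spots more than 1 apart. Over all arrays 1.69% of the members' values and 1.75% of all genes' values were that far apart. These are shares of single values and not of calls, so they cannot be set against the 5. The matching count for calls over all genes was not made. Why the spots differ was not tested.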

How the results depend on the processing

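Besides the reported fit, 11 kinds of alternative were run, of which leaving out spots that differ by more than 1 and leaving out the arrays with disagreeing labels were added after seeing the data. Of 59 single calls in conditions and contrasts, 3 held in every setting that gave a value, MRPS5 with caffeine 20 mM at 15 min and MRP2 and MRPL15 at 90 min, and MRPL15 has no value where its disagreeing spots are left out. The cause of the changes below was not tested, except that fewer arrays or genes enter some settings. Numbers are members called unless a median is named, and a condition left out of a sentence stayed within 1.5 times the reported count. Shares of all genes called are added for single conditions that kept both arrays.

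Without the replicate block the counts were 0 for calcofluor white 0.02 mg/ml at 90 min and 0.1 mg/ml at 15 and 90 min. Over all genes the shares called there were 3.17%, 0% and 4.43%. The counts were 0 for congo red 0.02 mg/ml at 90 min, 1 for caffeine 2 mM at 5 min and 2 for 20 mM at 15 min. There the shares over all genes were 0.224%, 0.903% and 12.5%. In contrasts without the block they were 0 for the caffeine dose at 90 min, 0 for calcofluor white 90 minus 15 min, 4 for caffeine 90 minus 15 min, and 1 and 2 for caffeine minus the dyes at 15 and 90 min.

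With values as deposited, not centred, the counts were 5 for calcofluor white 0.02 mg/ml at 90 min and 2 for caffeine 2 mM at 5 min. The shares over all genes were 14.2% and 3.59%, and the medians of the members −0.168 and −0.134. The count was 1 for the caffeine dose at 5 min, and the median was −0.139 for caffeine 20 mM at 90 min. With arrays scaled to one spread the counts were 0 and 1 for calcofluor white at 90 min (0.02 and 0.1 mg/ml) and 1 for congo red 0.1 mg/ml at 5 min. Over all genes the shares called there were 6.91%, 6.61% and 0.15%. The counts were 1 for caffeine 2 mM at 5 min and 2 and 2 for 20 mM at 15 and 90 min. There the shares over all genes were 0.583%, 10.7% and 16.9%. In contrasts scaling gave 1 for the calcofluor white dose at 15 min, 0 for the caffeine dose at 90 min, 0 for caffeine 90 minus 15 min, and 3 and 1 for caffeine minus the dyes at 15 and 90 min. Restricted to genes measured on every array, the count was 0 for caffeine 2 mM at 15 min, against 0.542% of all genes. The member called there in the reported fit, MRPS5, had values on 35 arrays and so could not enter this setting. The count was 1 for the caffeine dose at 5 min, with a median of −0.141 for caffeine 20 mM at 90 min. Keeping floored spots moved no count by over 1.5 times.

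Without discordant spots, 0 were called for calcofluor white 0.1 mg/ml at 15 min (0% of all genes) and 0 for its 90 minus 15 min. Without the arrays of disagreeing labels the counts were 1 and 2 for calcofluor white at 90 min (0.02 and 0.1 mg/ml), 0 for congo red 0.02 mg/ml at 90 min, 1 for caffeine 2 mM at 5 min, 3 for 20 mM at 15 min, 4 for the caffeine dose at 90 min and 1 for caffeine 90 minus 15 min, and calcofluor white at 15 min has no value. Over all genes the shares without those arrays were 8.4% and 12.3% for calcofluor white at 90 min and 2.64% for caffeine 2 mM at 5 min. Fitted on the arrays of 1 drug the counts were 5 for calcofluor white 0.02 mg/ml at 90 min, against 17.8% of all genes. They were 0 for 0.1 mg/ml at 15 min and 0 for caffeine 2 mM at 5 and 15 min, against 0% in each. In contrasts they were 1 for the caffeine dose at 90 min, 0 for calcofluor white 90 minus 15 min and 1 for caffeine 90 minus 15 min.

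With the sign of caffeine 2 mM 15 min replicate 1 turned the counts were 0 for congo red 0.02 mg/ml at 90 min and 3 and 0 for caffeine 2 mM at 5 and 15 min. Over all genes the shares called there were 0.523%, 3.93% and 0%. The count was 4 for the caffeine dose at 15 min. With that of 5 min turned the counts were 4 for calcofluor white 0.02 mg/ml at 90 min and 0 for 0.1 mg/ml at 15 min, against 10.7% and 0% of all genes. They were 8 (median −0.161) and 0 for caffeine 2 mM at 5 and 15 min, against 17.85% and 0.298% of all genes. In contrasts they were 2 for the caffeine dose at 5 min and 1 for caffeine 15 minus 5 min. In this setting MRP51 (−0.179) and MRPS5 (−0.112) with caffeine 2 mM at 5 min reversed.

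Leaving out 1 array at a time leaves a condition with 1 array, assumed to vary like the others. The number of all genes called moved in these fits as well, so the ranges are not particular to the members. The counts then ranged from 7 to 13 for caffeine 2 mM at 5 min, 1 to 2 at 15 min and 0 to 1 at 90 min, and from 3 to 5 and 6 to 16 for 20 mM at 15 and 90 min. They ranged from 0 to 1 for calcofluor white 0.02 mg/ml at 15 and 90 min, 0 to 3 for 0.1 mg/ml at 15 and 90 min, 0 to 1 for congo red 0.1 mg/ml at 5 and 90 min, and were 0 for congo red 0.02 mg/ml at 90 min. In contrasts they ranged from 0 to 15 and 1 to 9 for the caffeine dose at 5 and 90 min, 0 to 3 and 0 to 1 for the calcofluor white dose at 15 and 90 min, 4 to 14 for caffeine 90 minus 15 min, 0 to 2 and 0 to 3 for calcofluor white 15 minus 5 and 90 minus 15 min, 0 to 2 and 0 to 1 for congo red minus calcofluor white at 15 and 90 min, and 2 to 5 and 1 to 12 for caffeine minus the dyes at 15 and 90 min. Medians ranged from −0.170 to 0.203 for caffeine 2 mM at 5 min, 0.0273 to 0.135 for 20 mM at 15 min, −0.0465 to 0.0661 and −0.0132 to 0.132 for congo red 0.02 and 0.1 mg/ml at 5 min and −0.0860 to 0.0396 for 0.1 mg/ml at 90 min. MRPL37 with calcofluor white 0.02 mg/ml at 90 min ranged from −0.378 (reversed, without replicate 2) to 2.591 (without replicate 1). Signal over background cannot be judged from deposited ratios.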

Other observations

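Of the 56 genes, 30 have a divergently transcribed neighbour. This comparison was chosen after the values were seen. Across 26 such pairs the estimates of member and neighbour correlated at 0.05 with calcofluor white 0.1 mg/ml at 90 min, and across 28 pairs at 0.19 and −0.15 with caffeine 20 mM at 15 and 90 min. The points share arrays, and genes are not independent replicates, so no test is given.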
